A study of Mus musculus with 3 samples.

Results

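Mean RNA levels of 40 genes that work in S phase and mitosis were described in hepatic stellate cells (HSCs). These cells store vitamin A beside the liver sinusoids. Progression through the cell division cycle itself was not measured here. The genes were taken from a list of symbols, and all 40 were found among the 30595 symbols that occur once in each of the deposited tables. They were kept apart as 20 replication genes, which license, copy or supply DNA, and 20 G2/M genes, which condense and segregate chromosomes. D cyclins were left out of the list.

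HSCs came from livers of wild-type female C57BL/6 mice older than 24 weeks, were enriched on a Nycodenz density gradient and were kept in DMEM with 0.2% FBS for 24 h. They were then stimulated for 24 h with 100 ng/mL recombinant human FGF18, stimulated for 24 h with 1 ng/mL TGFβ1 (TGFb1 in the labels), or left untreated, all in the same low-serum setting. A preparation typically held the cells of more than 1 mouse. The methods of the study state triplicate samples, whereas the labels list 1 record for each of the 3 conditions, and the tables hold a mean per condition, with no values per sample. The standard errors and p-values that the authors deposited for their own comparisons were not used, so the means below stand without an error and their differences without a test.

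In healthy liver HSCs are largely quiescent, and they divide after injury and in culture. During G1 the MCM helicase is loaded onto DNA by CDC6 and CDT1, and E2F transcription factors, released from retinoblastoma proteins by cyclin-dependent kinases, switch on the genes for DNA synthesis. Genes of G2 and mitosis are switched on later, through a promoter element called CHR (cell cycle genes homology region), often beside CCAAT boxes, at which the MuvB complex acts as a repressor (DREAM) in resting cells and as an activator with B-MYB and FOXM1 in dividing cells. Ki-67, TOP2A and cyclin B are widely used as signs of dividing cells.

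The promoters of the members were searched for these elements. Of the 40 members, 32 were matched to a RefSeq promoter on GRCm38.p6, a window from 250 bases before to 50 bases after the gene start, with 17 promoters for 16 replication genes and 16 promoters for 16 G2/M genes. Both strands were searched for the E2F-type words TTTCCCGC, TTTGGCGC, TTTCGCGC and TTTGCCGC, the CHR words TTTGAA and TTCGAA, and CCAAT. Matches of different kinds may overlap, and those of the E2F type can share bases on opposite strands. An E2F-type word stood in 35.3% of the replication promoters, 6.2% of the G2/M promoters and 2.3% of all 32851 RefSeq promoters of that length. A CHR word stood in 11.8% of the replication promoters, 81.2% of the G2/M promoters and 19.2% of all promoters. For CCAAT the shares were 58.8%, 87.5% and 37.4%. The 44 promoters of other replication genes had E2F-type words in 29.5%, and the 51 promoters of other G2/M genes had CHR words in 70.6%. No match of any kind was found for *Tyms*, *Tk1*, *Ung*, *Ccne1*, *E2f1*, *Birc5* and *Nusap1*, and 8 members were not searched. The windows of *E2f1* and *Mcm7* lie wholly downstream of the gene starts that GENCODE gives, as does that of *Cdc6* below. For these genes the sequence before the GENCODE start was not searched. These matches are descriptions of letters in a window, and binding was not measured.

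**Figure D1:**
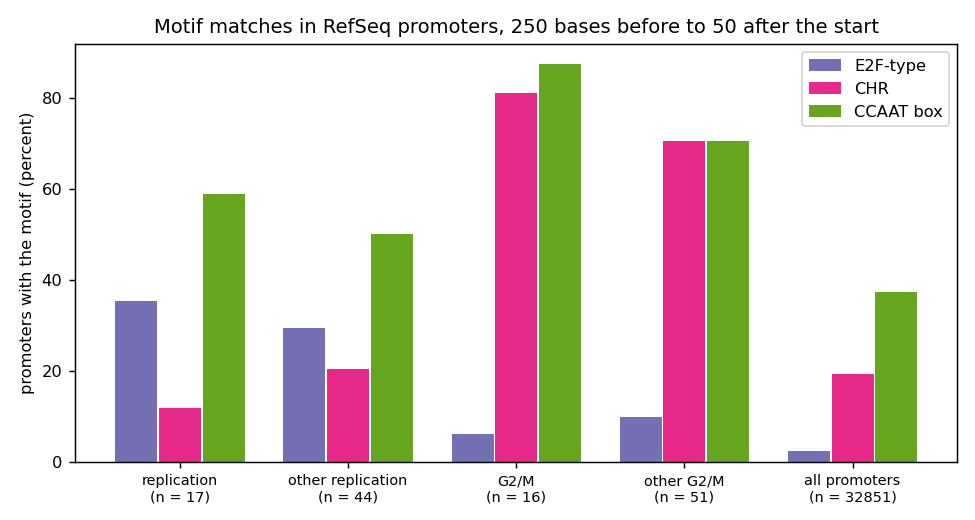
The vertical axis gives the percentage of promoters that hold at least 1 match, and each cluster of bars is a gene list, with the number of its promoters below. CHR words stand in 81.2% of the G2/M promoters and 11.8% of the replication promoters, and E2F-type words in 6.2% and 35.3%.

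The promoters of 4 members counted as different in the comparisons below are shown, a pair from each set, chosen after their values were seen, with every E2F-type, CHR and CCAAT match on either strand in capitals. Those of *Mcm3* (chr1:20820263-20820562, minus strand) and *Cdc6* (chr11:98907901-98908200, plus strand) stand for the replication genes. Those of *Top2a* (chr11:99024140-99024439, minus strand) and *Bub1* (chr2:127831810-127832109, minus strand) stand for the G2/M genes. The RefSeq start of *Cdc6* lies inside the gene as GENCODE places it, so that the window shown lies wholly downstream of the GENCODE start. *Mcm3* has 2 E2F-type and 3 CCAAT matches, *Cdc6* has 1 E2F-type match, *Top2a* has 4 CHR and 6 CCAAT matches and *Bub1* has 1 CHR and 2 CCAAT matches.
Mcm3: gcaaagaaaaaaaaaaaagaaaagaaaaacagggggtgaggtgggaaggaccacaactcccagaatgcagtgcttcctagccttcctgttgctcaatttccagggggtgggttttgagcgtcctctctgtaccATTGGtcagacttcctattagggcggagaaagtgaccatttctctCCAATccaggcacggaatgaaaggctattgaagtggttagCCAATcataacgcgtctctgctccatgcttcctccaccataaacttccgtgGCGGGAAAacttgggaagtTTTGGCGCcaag
Cdc6: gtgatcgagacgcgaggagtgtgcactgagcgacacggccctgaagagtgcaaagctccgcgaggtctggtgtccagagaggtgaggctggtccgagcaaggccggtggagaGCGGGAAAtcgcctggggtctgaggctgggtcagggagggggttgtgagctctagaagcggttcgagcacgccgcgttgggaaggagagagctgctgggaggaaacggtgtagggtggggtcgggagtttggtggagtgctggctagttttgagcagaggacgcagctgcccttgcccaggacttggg
Top2a: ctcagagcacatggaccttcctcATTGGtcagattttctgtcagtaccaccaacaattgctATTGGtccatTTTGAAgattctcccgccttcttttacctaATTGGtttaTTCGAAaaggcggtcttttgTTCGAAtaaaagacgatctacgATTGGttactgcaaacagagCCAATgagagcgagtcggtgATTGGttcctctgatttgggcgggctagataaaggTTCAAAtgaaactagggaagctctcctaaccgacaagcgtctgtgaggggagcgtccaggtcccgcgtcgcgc
Bub1: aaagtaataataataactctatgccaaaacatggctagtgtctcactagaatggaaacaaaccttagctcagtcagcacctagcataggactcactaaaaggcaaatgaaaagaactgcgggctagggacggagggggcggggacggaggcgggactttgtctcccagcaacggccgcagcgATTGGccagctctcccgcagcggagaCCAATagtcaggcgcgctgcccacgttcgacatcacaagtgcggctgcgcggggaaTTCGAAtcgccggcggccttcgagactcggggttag

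Levels are given in TPM (transcript counts scaled to a common total), which are corrected for gene length and can therefore be compared between genes. Each member had a mean over the 3 conditions of at least 1 TPM and none was filtered out. Ranked by mean level among all 30595 symbols, of which 20908 reach that mean, the members ran from the 35.5th percentile (*Plk1*) to the 94.4th (*Slbp*). Symbols below 1 TPM fill the lowest of these ranks, and ranks among the 20908 genes alone were not computed. The median level of the replication genes was 10.6 TPM with FGF18, 11.5 TPM with TGFβ1 and 13.3 TPM in untreated cells. That of the G2/M genes was 5.02 TPM with FGF18, 4.45 TPM with TGFβ1 and 4.58 TPM in untreated cells. The 20 replication genes summed to 442.3 TPM with FGF18, 449.5 TPM with TGFβ1 and 504.0 TPM in untreated cells. The 20 G2/M genes summed to 102.6 TPM with FGF18, 112.1 TPM with TGFβ1 and 115.0 TPM in untreated cells. The replication sum was thus 4.31 times the G2/M sum with FGF18, 4.01 times with TGFβ1 and 4.38 times in untreated cells, a wider gap than that of the medians, with *Slbp*, *Pcna*, *Tyms*, *Rrm1* and *Rfc2* the largest terms. More replication members lay above the highest G2/M member with FGF18 (10) than with TGFβ1 (7) or in untreated cells (6), and in untreated and TGFβ1 cells that member was *Top2a*.

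**Figure D2:**
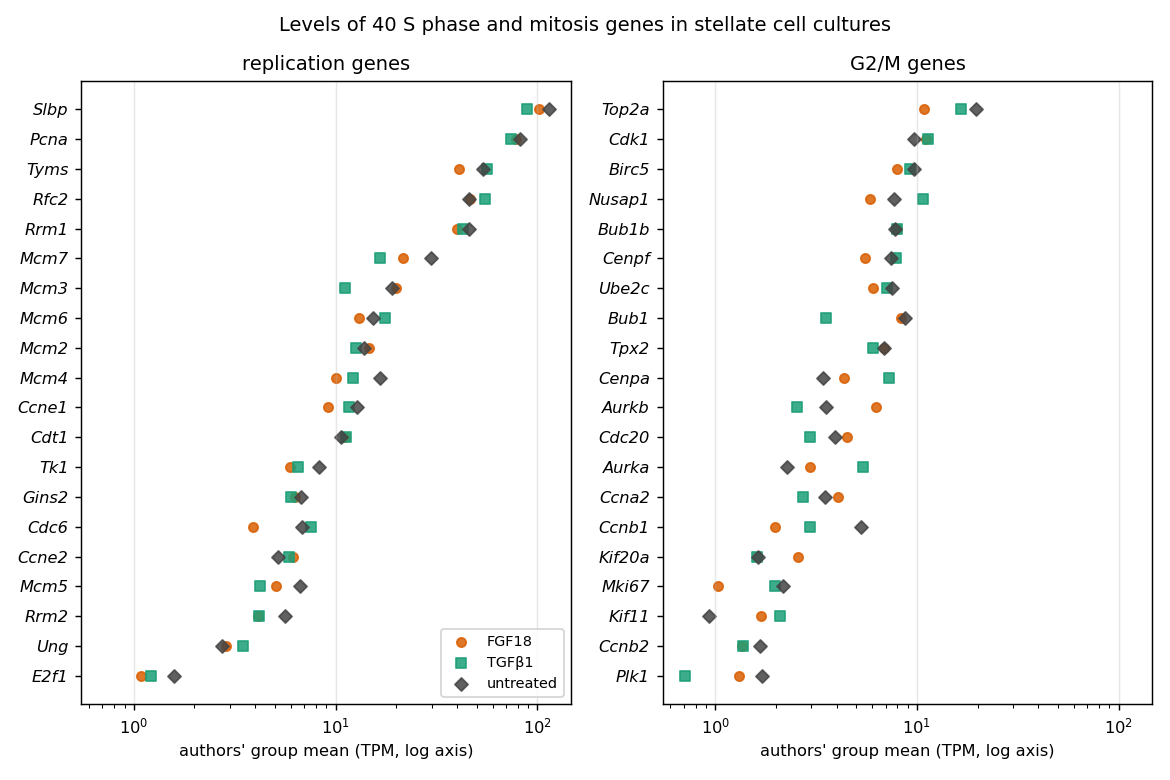
The horizontal axis is the authors' mean level in TPM on a log axis, and each row is a gene, ordered by its mean over the conditions, with replication genes in one panel and G2/M genes in the other. The 3 symbols of most rows lie close together, and the wider gaps include *Mcm7*, *Bub1*, *Ccnb1* and *Mki67*.

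Differences are log2 ratios of the mean levels after adding 1 TPM to each, which understates differences of genes near 1 TPM, and a gene was counted as higher or lower where this ratio passed 1.5-fold (0.58 on the log2 scale). Folds stated without log2 divide the means themselves. With FGF18, 0 replication genes were counted as higher and 2 as lower, *Cdc6* and *Mcm4*. Of all 20908 genes, 6.56% were higher and 16.0% lower by the same rule. Of the 20 replication genes, 14 (70.0%) lay below 0, against 61.8% of all genes. The median log2 ratio of the replication genes was -0.20, against -0.12 over all genes. Since all genes were shifted by that median, but by -0.03 where the mean was at least 10 TPM, small negative FGF18 ratios have to be set against it. Of the 20 G2/M genes, *Aurkb* was counted as higher and *Ccnb1*, *Top2a* and *Mki67* as lower with FGF18. Their median was -0.02, with 10 members above and 10 below 0. The counts of 2 and 3 lower members in lists of 20 are 10.0% and 15.0%, below and near the share of all genes.

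With TGFβ1, 0 replication genes were counted as higher and 2 as lower, *Mcm7* and *Mcm3*. Among the G2/M genes *Aurka*, *Cenpa* and *Kif11* were higher, and *Bub1*, *Plk1* and *Ccnb1* lower. Of these, *Kif11* (0.929 TPM in untreated cells) reached the mean of 1 TPM through the stimulated cells alone. The shares of all genes past 1.5-fold were 10.3% higher and 10.4% lower. The median log2 ratio was -0.13 for the replication genes and -0.08 for the G2/M genes, against -0.00 over all genes. In both lists 13 of 20 members (65.0%) lay below 0, against 50.4% of all genes. Both stimuli are compared with the same untreated cells, so their ratios share that denominator. Past 1.5-fold with neither stimulus were 16 of the replication genes and 11 of the G2/M genes. Of all 20908 genes, 16183 lay within 1.5-fold with FGF18 and 16579 with TGFβ1. How many lay within it with both was not counted, so these 2 counts have no matching background.

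**Figure D3:**
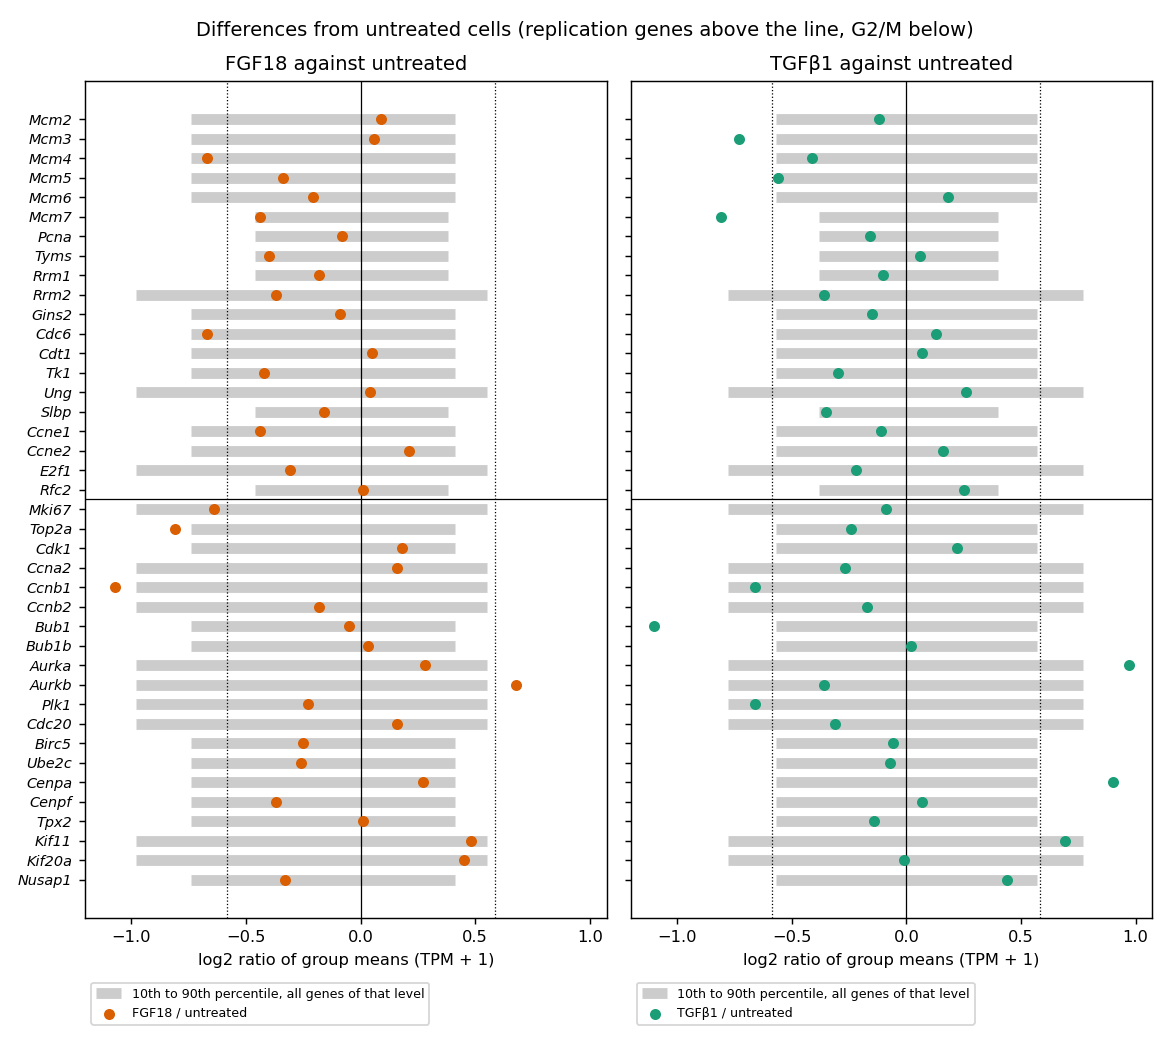
Each point is the log2 ratio of a gene's mean (TPM + 1) over that of untreated cells, with FGF18 in the panel titled FGF18 against untreated and TGFβ1 in the other, and dotted lines mark 1.5-fold. Grey bars span the 10th to the 90th percentile of all genes of the same level class (1 to under 5, 5 to under 20, at least 20 TPM). By definition they leave out about 10% of those genes at each end. Most points lie on their bar, 20 of 20 replication genes with FGF18 and 18 of 20 with TGFβ1.

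The *Mcm2* to *Mcm7* genes encode the ring-shaped helicase that unwinds DNA at replication forks, and their products act in equal numbers. Summed over the 6 genes, their level was 84.5 TPM with FGF18, 74.3 TPM with TGFβ1 and 101.3 TPM in untreated cells. The subunits differed in their order of levels. *Mcm7* (chromosome 5, 138164583 to 138172422) had 21.7 TPM with FGF18, 16.6 TPM with TGFβ1 and 29.9 TPM in untreated cells. TGFβ1 cells were 1.80-fold below untreated cells, a log2 ratio of -0.81 that lies at the 2.40th percentile of all genes of its level. *Mcm3* (chromosome 1, 20802968 to 20820312) had 19.9 TPM with FGF18, 11.1 TPM with TGFβ1 and 19.0 TPM in untreated cells. Its TGFβ1 cells were thus the low ones, at -0.73 against untreated cells, while its FGF18 ratio was 0.06.

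*Mcm4* (chromosome 16, 15623897 to 15637400) showed the other order, with 10.1 TPM with FGF18, 12.2 TPM with TGFβ1 and 16.6 TPM in untreated cells. Its log2 ratio was -0.67 with FGF18, just past 1.5-fold, and -0.41 with TGFβ1. *Mcm5* had 5.07, 4.21 and 6.66 TPM in FGF18, TGFβ1 and untreated cells, and its TGFβ1 ratio of -0.56 lay just short of 1.5-fold. *Mcm6*, with 13.1 TPM with FGF18, 17.5 TPM with TGFβ1 and 15.3 TPM in untreated cells, was the 1 subunit with a positive TGFβ1 ratio (0.18). *Mcm2* was close in all conditions, with 14.7 TPM with FGF18, 12.6 TPM with TGFβ1 and 13.8 TPM in untreated cells.

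Of the genes that load the helicase and build the fork, *Cdc6* (chromosome 11, 98907801 to 98923940), whose product recruits MCM to origins, stood apart with FGF18. Its level was 3.92 TPM with FGF18, 7.59 TPM with TGFβ1 and 6.85 TPM in untreated cells. The FGF18 cells were 1.75-fold below the untreated cells, a log2 ratio of -0.67 at the 11.9th percentile of its level class. *Cdt1*, its partner in loading, had 11.1 TPM with FGF18, 11.3 TPM with TGFβ1 and 10.7 TPM in untreated cells, so *Cdt1* was nearly level where *Cdc6* was low with FGF18. *Gins2*, a subunit of the complex that joins MCM in the active helicase, had 6.30, 6.03 and 6.78 TPM in the same order of conditions. *Pcna*, the sliding clamp of DNA polymerases, was among the most abundant members, with 78.2 TPM with FGF18, 73.8 TPM with TGFβ1 and 82.5 TPM in untreated cells. *Rfc2*, part of the loader of that clamp, had 46.2 TPM with FGF18, 54.9 TPM with TGFβ1 and 45.8 TPM in untreated cells, and its ratios were 0.01 and 0.25.

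Enzymes that supply nucleotides had log2 ratios from -0.42 to -0.18 with FGF18 in 4 of 4 genes, within 1.5-fold. They lay from the 12.8th (*Tyms*) to the 39.5th percentile (*Rrm2*) of genes of their level. Over all genes of any level 61.8% lay below 0, but the median of genes of at least 20 TPM, such as *Tyms* and *Rrm1*, was -0.00. *Tyms*, which makes thymidylate, had 40.7 TPM with FGF18, 56.6 TPM with TGFβ1 and 54.0 TPM in untreated cells. *Tk1*, the thymidine kinase of the salvage route, had 5.94 TPM with FGF18, 6.53 TPM with TGFβ1 and 8.28 TPM in untreated cells. The subunits of ribonucleotide reductase were far apart in level. *Rrm1*, the large subunit, had 40.2, 42.6 and 45.8 TPM in FGF18, TGFβ1 and untreated cells, and *Rrm2*, the small subunit whose supply follows S phase, had 4.14, 4.17 and 5.63 TPM.

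Cyclin E drives the entry into S phase with CDK2. *Ccne1* had 9.17 TPM with FGF18, 11.7 TPM with TGFβ1 and 12.8 TPM in untreated cells, whereas *Ccne2* had 6.17 TPM with FGF18, 5.90 TPM with TGFβ1 and 5.19 TPM in untreated cells. The pair therefore lay on opposite sides of the untreated level, both within 1.5-fold. *E2f1*, an activating E2F, was the lowest replication member, at 1.09 TPM with FGF18, 1.22 TPM with TGFβ1 and 1.59 TPM in untreated cells. *Slbp*, which binds the stem-loop of histone mRNAs, was the highest member, at 102 TPM with FGF18, 89.4 TPM with TGFβ1 and 114 TPM in untreated cells. *Ung*, which removes uracil from DNA, had 2.85 TPM with FGF18, 3.47 TPM with TGFβ1 and 2.73 TPM in untreated cells.

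Among the G2/M genes, those of chromosome structure were lower with FGF18. *Top2a* (chromosome 11, 98992943 to 99024189), the topoisomerase that untangles sister chromatids, had 10.8 TPM with FGF18, 16.6 TPM with TGFβ1 and 19.7 TPM in untreated cells. Its log2 ratio was -0.81 with FGF18, at the 7.65th percentile of genes of its level, and -0.24 with TGFβ1. *Mki67* (chromosome 7, 135689784 to 135716361), which encodes Ki-67, a coat of mitotic chromosomes, had 1.03 TPM with FGF18, 1.98 TPM with TGFβ1 and 2.17 TPM in untreated cells. FGF18 cells were 2.11-fold below untreated cells in plain levels, but at this low level the log2 ratio was -0.64, close to the threshold and at the 20.7th percentile. FGF18 cells were the low ones for both genes, and TGFβ1 cells lay near untreated cells.

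Cyclin B with CDK1 starts mitosis. *Ccnb1* (chromosome 13, 100778650 to 100786570) was lowest with FGF18, at 1.98 TPM with FGF18, 2.96 TPM with TGFβ1 and 5.26 TPM in untreated cells. Its log2 ratios were -1.07 with FGF18 and -0.66 with TGFβ1, and *Ccnb1* was the 1 member counted as lower with both stimuli. Both ratios share the untreated level of 5.26 TPM, and the share of all genes lower with both stimuli was not counted. *Ccnb1* has 4 processed pseudogenes that match it at 90% identity or more over at least 400 bases. Together these pseudogenes had 2.58 TPM with FGF18, 3.98 TPM with TGFβ1 and 2.96 TPM in untreated cells. With these added, the ratios were -0.73 with FGF18 and -0.22 with TGFβ1, and the second was no longer past 1.5-fold. *Ccnb2* had 1.36, 1.37 and 1.67 TPM in FGF18, TGFβ1 and untreated cells. *Ccna2*, cyclin A of S phase and G2, had 4.05 TPM with FGF18, 2.74 TPM with TGFβ1 and 3.51 TPM in untreated cells. *Cdk1*, the kinase itself, was the highest G2/M member in FGF18 cells, with 11.1 TPM with FGF18, 11.4 TPM with TGFβ1 and 9.66 TPM in untreated cells, so the kinase and its B1 cyclin differed in direction.

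*Bub1* (chromosome 2, 127801122 to 127831865) had the largest log2 ratio of any member against untreated cells on this scale, although with 0.1 TPM added in place of 1 TPM *Ccnb1* (-1.36 with FGF18) passed it (-1.28 with TGFβ1). It encodes a kinase of the spindle checkpoint that holds anaphase until chromosomes are attached. Its level was 8.36 TPM with FGF18, 3.53 TPM with TGFβ1 and 8.71 TPM in untreated cells. TGFβ1 cells were 2.47-fold below untreated cells, a log2 ratio of -1.10 at the 2.98th percentile of its level class, while the FGF18 ratio was -0.05. Its relative *Bub1b*, which encodes BUBR1 of the same checkpoint, had 8.00 TPM with FGF18, 7.93 TPM with TGFβ1 and 7.80 TPM in untreated cells, with log2 ratios of 0.03 and 0.02.

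The mitotic kinases *Aurka* and *Aurkb* lay above the untreated level with FGF18 and on opposite sides of it with TGFβ1. *Aurka* (chromosome 2, 172356190 to 172370535), the kinase of spindle poles, had 2.96 TPM with FGF18, 5.38 TPM with TGFβ1 and 2.27 TPM in untreated cells, a log2 ratio of 0.97 with TGFβ1. *Aurkb* (chromosome 11, 69045647 to 69051664), the kinase of the chromosomal passenger complex, had 6.28 TPM with FGF18, 2.55 TPM with TGFβ1 and 3.55 TPM in untreated cells, a log2 ratio of 0.68 with FGF18 and -0.36 with TGFβ1. *Birc5*, or survivin, a partner of *Aurkb* in that complex, had 7.97, 9.22 and 9.66 TPM in FGF18, TGFβ1 and untreated cells. *Plk1* (chromosome 7, 122159439 to 122169873), a kinase of mitotic entry and the lowest member by mean, had 1.31 TPM with FGF18, 0.708 TPM with TGFβ1 and 1.70 TPM in untreated cells. Its TGFβ1 log2 ratio was -0.66, and the TGFβ1 and untreated levels differ by less than 1 TPM.

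*Cenpa* (chromosome 5, 30666777 to 30674830), the histone H3 variant that marks centromeres, was high with TGFβ1, at 4.33 TPM with FGF18, 7.27 TPM with TGFβ1 and 3.43 TPM in untreated cells. Its TGFβ1 log2 ratio of 0.90 lay at the 95.7th percentile of its level class. *Cenpf*, a kinetochore protein, had 5.54 TPM with FGF18, 7.88 TPM with TGFβ1 and 7.47 TPM in untreated cells.

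Of the motors and spindle factors, *Kif11* (chromosome 19, 37376403 to 37421859), the kinesin that pushes spindle poles apart, had 1.68 TPM with FGF18, 2.10 TPM with TGFβ1 and 0.929 TPM in untreated cells. *Kif11* reached the mean of 1 TPM through the stimulated cells alone, so its difference is a condition of its being counted. Its log2 ratio was 0.69 with TGFβ1, but an unprocessed pseudogene of it, *Gm15697*, had 2.36 TPM with FGF18, 3.94 TPM with TGFβ1 and 3.69 TPM in untreated cells. With that copy added the *Kif11* ratio was 0.33 with TGFβ1, within 1.5-fold, and -0.16 with FGF18. *Nusap1*, which bundles spindle microtubules, had 5.87 TPM with FGF18, 10.7 TPM with TGFβ1 and 7.66 TPM in untreated cells. *Tpx2*, the activator of Aurora A, had 6.89, 6.08 and 6.83 TPM in FGF18, TGFβ1 and untreated cells. *Kif20a*, a kinesin of cytokinesis, had 2.58 TPM with FGF18, 1.62 TPM with TGFβ1 and 1.63 TPM in untreated cells, and over 1271 bases its exons overlap those of *Cdc23* on the other strand.

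The genes that promote anaphase lay within 1.5-fold. *Cdc20*, the activator of the anaphase-promoting complex, had 4.50 TPM with FGF18, 2.96 TPM with TGFβ1 and 3.91 TPM in untreated cells. *Ube2c*, the ubiquitin-conjugating enzyme of that complex, had 6.07 TPM with FGF18, 7.07 TPM with TGFβ1 and 7.50 TPM in untreated cells. A processed pseudogene of it, *Gm8956*, was listed above the gene itself, at 23.3 TPM with FGF18, 31.8 TPM with TGFβ1 and 33.1 TPM in untreated cells. In all, 12 members have such near copies and 13 have exons that overlap another gene's, 7 of them by 400 bases or more. How reads were shared among copies is not given in the sources used here, and the library kit does not mark strand, so the levels of these members are uncertain.

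FGF18 and TGFβ1 cells were also set against each other. Among the replication genes *Mcm3* was higher (log2 ratio 0.79) and *Cdc6* lower (-0.80) with FGF18 than with TGFβ1. Among the G2/M genes *Bub1* (1.05) and *Aurkb* (1.03) were higher, and *Nusap1* (-0.77), *Aurka* (-0.69) and *Cenpa* (-0.63) lower. *Top2a*, at -0.58, lay just outside. By the same rule 6.20% of all genes were higher and 14.4% lower with FGF18. The medians were -0.05 for the replication genes and -0.12 for the G2/M genes, against -0.12 over all genes, so that the lists as a whole lay near the other genes while single members lay on both sides.

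Replication and mitosis genes that are not members were described from further lists. Of 44 other replication and G1/S genes, 1 was higher and 5 lower with FGF18 (median -0.24), and 2 were higher and 0 lower with TGFβ1 (median -0.11). With FGF18 these are 2.27% and 11.4%, against 6.56% and 16.0% of all genes. With TGFβ1 they are 4.55% and 0%, against 10.3% and 10.4%. The share of lower genes was thus below that of all genes with both stimuli. *Gins1*, a partner of *Gins2*, had 7.17 TPM with FGF18, 17.3 TPM with TGFβ1 and 21.5 TPM in untreated cells, a log2 ratio of -1.46 with FGF18. *Clspn*, the fork protein claspin, had 3.99 TPM with FGF18, 6.91 TPM with TGFβ1 and 9.09 TPM in untreated cells (-1.02 with FGF18). *Uhrf1*, which keeps up DNA methylation at forks, was the 1 gene counted as higher with FGF18, at 6.89 TPM with FGF18, 4.32 TPM with TGFβ1 and 3.79 TPM in untreated cells. *Dut*, which keeps uracil out of DNA, was higher with TGFβ1, at 50.3 TPM with FGF18, 73.8 TPM with TGFβ1 and 44.1 TPM in untreated cells.

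Of 53 other G2/M genes, 4 were higher and 12 lower (22.6%) with FGF18, with a median of -0.26 and 43 of 53 below 0, where the 20 members had 1 higher, 3 lower and a median of -0.02. Of all genes, 16.0% were lower and 61.8% lay below 0 with FGF18. By their mean, lower genes made up 23.9% at 1 to under 5 TPM, 16.4% at 5 to under 20 TPM and 5.65% from 20 TPM. Within their own level class the 53 genes had a median percentile of 40.5. That places the middle of the list, and its share of lower genes was not counted by level class. With TGFβ1, 2 were higher (3.77%) and 3 lower (5.66%), against 10.3% and 10.4% of all genes, with a median of 0.08. *Melk*, a kinase of dividing cells, had 1.80 TPM with FGF18, 3.23 TPM with TGFβ1 and 5.03 TPM in untreated cells. *Dlgap5*, a spindle protein, had 3.05 TPM with FGF18, 7.12 TPM with TGFβ1 and 7.00 TPM in untreated cells. *Kif15*, a kinesin that acts beside *Kif11*, had 8.79 TPM with FGF18, 17.6 TPM with TGFβ1 and 17.4 TPM in untreated cells. On the other side, *Tacc3*, a spindle protein downstream of Aurora A, had 10.5 TPM with FGF18, 6.75 TPM with TGFβ1 and 4.94 TPM in untreated cells (log2 ratio 0.95 with FGF18). *Cenpe*, also counted as higher with FGF18, had 2.36 TPM with FGF18, 1.02 TPM with TGFβ1 and 0.781 TPM in untreated cells. It reached the mean of 1 TPM through the stimulated cells alone. *Cenpn*, which reads CENP-A at centromeres, had 3.81 TPM with FGF18, 1.35 TPM with TGFβ1 and 5.08 TPM in untreated cells (-1.37 with TGFβ1).

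Of the partners of MuvB that activate CHR-bearing genes, *Mybl2*, which encodes B-MYB, had 7.74 TPM with FGF18, 9.13 TPM with TGFβ1 and 4.76 TPM in untreated cells, with log2 ratios of 0.60 with FGF18, close to the threshold, and 0.82 with TGFβ1. *Foxm1* had 1.18 TPM with FGF18, 1.69 TPM with TGFβ1 and 0.428 TPM in untreated cells, and it reached the mean of 1 TPM through the stimulated cells alone, so its difference is a condition of its being counted. Of 20 retinoblastoma, E2F and DREAM genes, 1 was higher and 2 lower with FGF18 (median -0.00), and 1 was higher and 0 lower with TGFβ1 (median 0.07). With FGF18 these are 5.00% and 10.0%, against 6.56% and 16.0% of all genes. With TGFβ1 they are 5.00% and 0%, against 10.3% and 10.4%. *E2f5*, a repressive E2F, was higher with FGF18, at 18.8 TPM with FGF18, 18.1 TPM with TGFβ1 and 11.9 TPM in untreated cells. *Lin37*, a MuvB subunit, and *Skp2*, which marks the inhibitor p27 for destruction, were lower with FGF18, at log2 ratios of -0.61 and -0.63. *E2f2*, an activating E2F, was higher with TGFβ1, at 1.81 TPM with FGF18, 3.11 TPM with TGFβ1 and 1.43 TPM in untreated cells.

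**Figure D4:**
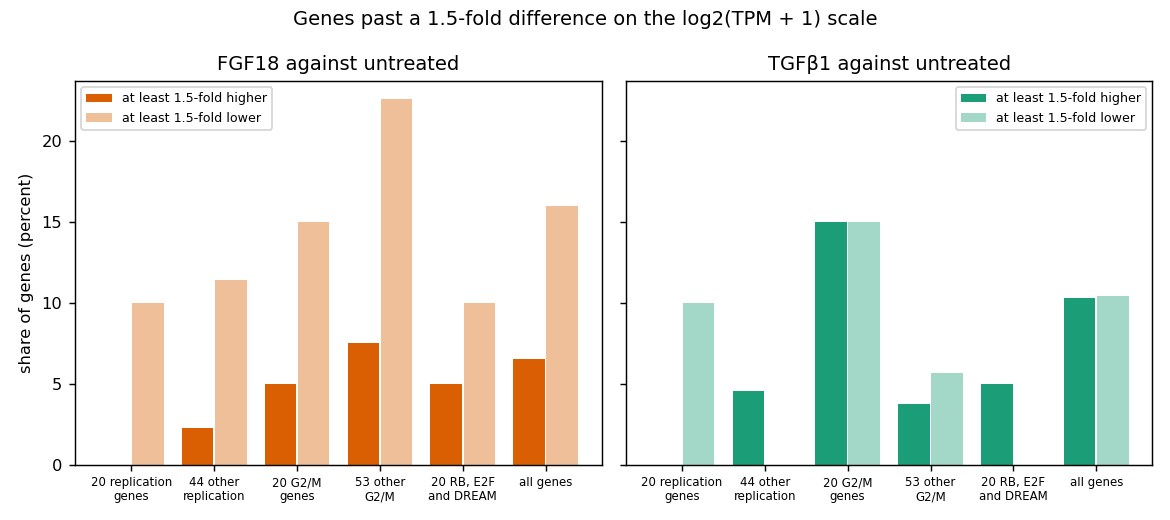
Bars give the percentage of each gene list that differed at least 1.5-fold from untreated cells, dark for higher and pale for lower, with FGF18 in the panel titled FGF18 against untreated and TGFβ1 in the other. With FGF18 the 53 other G2/M genes have the tallest bar for lower genes (22.6%), against 16.0% of all genes. Among all genes, lower ones made up 23.9% at 1 to under 5 TPM, 16.4% at 5 to under 20 TPM and 5.65% from 20 TPM. With TGFβ1 the bars of all genes are 10.3% and 10.4%.

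Level matters for such counts, because ratios of low genes spread more widely. Between the 10th and the 90th percentile, all genes with a mean of 1 to under 5 TPM spanned -0.98 to 0.55 with FGF18 and -0.78 to 0.77 with TGFβ1. Genes of at least 20 TPM spanned -0.46 to 0.38 with FGF18 and -0.38 to 0.40 with TGFβ1. By definition about 10% of all genes of a class lie below this range and about 10% above it. Read within their own level class, 20 of 20 replication genes lay inside this range with FGF18. With TGFβ1 18 of 20 lay inside, and *Mcm3* and *Mcm7* lay outside. Of the G2/M genes, 17 of 20 lay inside with each stimulus. Outside were *Ccnb1*, *Top2a* and *Aurkb* with FGF18, and *Bub1*, *Aurka* and *Cenpa* with TGFβ1.

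The cultures also differed in markers of cell type. All 12 stellate cell markers were found, and their summed level was 4399.0 TPM with FGF18, 5584.7 TPM with TGFβ1 and 9077.2 TPM in untreated cells, with *Dcn* the largest part. Of them, 5 were lower with FGF18, and 7 were lower and 2 higher with TGFβ1. The 9 liver endothelial markers summed to 270.1 TPM with FGF18, 153.6 TPM with TGFβ1 and 363.5 TPM in untreated cells, of which 1 was lower with FGF18, and 6 were lower and 1 higher with TGFβ1. The 10 macrophage markers summed to 137.5 TPM with FGF18, 145.9 TPM with TGFβ1 and 111.9 TPM in untreated cells, with *Adgre1* and *Clec4f* under 1 TPM in each condition. Of these 10, 2 were higher and 0 lower with FGF18, and 4 were higher and 0 lower with TGFβ1. Markers were counted whatever their mean, and 4 of these 10 averaged 1 TPM or more. *Vsig4*, counted with FGF18, and *C1qc*, counted with TGFβ1, averaged less. Of all genes, 6.56% were higher and 16.0% lower with FGF18, and 10.3% higher and 10.4% lower with TGFβ1. The 8 hepatocyte markers summed to 16.1, 18.2 and 16.5 TPM, the 4 cholangiocyte markers to 9.0, 12.0 and 10.5 TPM and the 7 lymphocyte markers to 29.0, 31.4 and 35.3 TPM in FGF18, TGFβ1 and untreated cells. The part of these cells in the levels of the members was not tested. In bulk RNA, fewer dividing cells and less of a transcript in each dividing cell cannot be told apart.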

How the data were processed

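RNA of FGF18-stimulated, TGFβ1-stimulated and untreated HSCs was sequenced by the authors as paired-end SMART-Seq libraries, mapped to GRCm38 (mm10 in the submitters' processing notes) and compared with the online platform RaNA-seq. The sources used here do not name aligner, counting program or annotation release. Values used here are the deposited ones, the authors' mean TPM per condition, in columns named A and B. A was read as untreated from the order in the table names and because A is equal, within 1e-06 TPM, in both tables for all 30595 shared symbols. The other deposited columns hold the authors' overall mean and their own fold change, standard error, statistic, p-value and adjusted p of each comparison. They were not used. The TPM columns sum to 999985 to 999995, depth per sample is unknown, and 0 columns belonged to no sample.

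Log2 ratios were taken after adding 1 TPM, keeping genes that averaged 1 TPM or more over the 3 conditions, and a gene was counted at 1.5-fold. Cell type markers were counted without that filter. No test was run. Named genes are the members, by step, and genes of the other lists past 1.5-fold or needed to describe a complex. Members and lists were chosen with earlier results of these data known. Positions and near copies (blastn 2.17.0, at least 90% identity over 400 bases) come from GENCODE M21 of GRCm38, and promoters from RefSeq on GRCm38.p6. Alternatives were other pseudocounts, filters, thresholds, centring and, added after seeing the data, near copies. Python 3.11.15, numpy 2.4.6, pandas 2.3.3 and matplotlib 3.10.9 were used, and the ratio step was tested on simulated data.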

Additional observations from a re-analysis of the deposited data

How the results depend on the processing

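The 18 summary values, a median ratio and the counts higher and lower for each list and comparison, were recomputed under 9 other settings (counts alone for the thresholds). Without the filter, with centred ratios and with near copies added, each of the 18 stayed within 0.1 (medians) or 1.5 times (counts), although the G2/M median with FGF18 was 0.01 centred and -0.02 as reported. The values that moved further under the other settings are given here, and the cause was not tested. Counts with FGF18 and with TGFβ1 are against untreated cells.

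With 0.1 TPM added, 3 G2/M genes were higher with FGF18, and 5 were higher and 5 lower with FGF18 than with TGFβ1. With 5 TPM added, 0 replication genes were lower with FGF18, 1 was lower with TGFβ1 and 0 were lower with FGF18 than with TGFβ1. Of the G2/M genes at 5 TPM, 0 were higher and 1 lower with FGF18, 0 higher and 1 lower with TGFβ1, and 1 higher and 0 lower with FGF18 than with TGFβ1. Past 1.5-fold with 0.1 TPM, with 5 TPM and when centred were *Top2a* with FGF18, *Mcm7* and *Bub1* with TGFβ1, and *Mcm3* and *Bub1* between the stimuli.

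Among genes that averaged 5 TPM or more, 10 G2/M members were left, with a median of -0.15, 0 higher and 1 lower with FGF18, 1 higher and 1 lower with TGFβ1, and 1 higher with FGF18 than with TGFβ1. At 10 TPM, 12 replication members were left, of which 1 was lower with FGF18 and 0 lower than with TGFβ1. The 2 G2/M members left, *Top2a* and *Cdk1*, gave a median of -0.32 with 0 higher and 1 lower with FGF18, 0 and 0 with TGFβ1, and -0.31 with 0 and 0 between the stimuli; fewer genes enter here by construction.

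At 2-fold, 0 replication genes were lower with FGF18, 0 lower with TGFβ1, and 0 higher and 0 lower between the stimuli. Of the G2/M genes, 0 were higher and 1 lower with FGF18, 0 higher and 1 lower with TGFβ1, and 0 lower between the stimuli. At a 25% difference in place of 1.5-fold, 8 replication genes were lower with FGF18, 6 lower with TGFβ1, and 2 higher and 4 lower between the stimuli. For the G2/M genes the counts were 3 higher and 5 lower with FGF18, and 6 higher and 7 lower between the stimuli.

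No paired analysis was possible because the tables hold a mean per condition and no values per sample, and leaving out a sample or another normalization was not run, since each needs such values. The number of reads behind a mean is unknown, also for members near 1 TPM, such as *Mki67*, *Plk1* and *Kif11*.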
